A study of Mus musculus with 2 samples.

Results

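The p53 gene Trp53, Reprimo (Rprm) and 8 further p53 target genes, Mdm2, Ccng1, Plk2, Eda2r, Phlda3, Trp53inp1, Aen and Zmat3, were followed in single tumour cells of a mouse model of small cell lung cancer. The 10 genes were taken by their symbol from the 28692 genes of the deposited count matrices, and all 10 were found in both. Single-cell RNA-seq libraries on the 10x platform were compared from lung tumours of mice given cisplatin, a platinum drug that crosslinks DNA, and of mice given saline as vehicle. There was 1 library per treatment. Cisplatin was dosed at 5 mg per kg, and both arms were treated every 4 days for 2 weeks. One label of the cisplatin cells also names etoposide, a topoisomerase poison, so whether these mice received both drugs cannot be told from the sources used here.

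Mice of both arms had a mixed strain background and the same engineered alleles. A CreER recombinase was driven by the CGRP (Calca) promoter, which is active in pulmonary neuroendocrine cells, and the floxed genes included Rb1 and Trp53. A further floxed allele is not reported here. The Rosa26 mTmG reporter turns GFP on where Cre has acted, and 5000 sorted live cells with GFP were loaded per arm. The sources used here do not give the number of animals behind each library, their age or whether tumours were pooled. Because each arm is 1 library, no test between treatments was possible, and every interval below is an exact 95% interval that covers counting error only. A treatment effect and a difference between these libraries or tumours cannot be told apart.

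The cisplatin library held 4218 barcodes and the vehicle library 3672 after those with under 500 detected genes or over 10% mitochondrial counts were removed. A median of 5940.5 unique molecular identifiers (UMIs, counted RNA molecules) per cell was found in the cisplatin library and of 8205.5 in the vehicle library. The libraries shared 23 barcode sequences. The label of neuroendocrine tumour cells was borne out by its markers: all 10 neuroendocrine genes, Chga and Insm1 among them, were detected in both, with summed levels of 8689 CPM (counts scaled to a fixed library total) with cisplatin and 6421 CPM with vehicle. Of the summed markers of other cell types, immune genes stood at 31.6 CPM with cisplatin and 76.6 CPM with vehicle, and fibroblast genes at 20.6 CPM with cisplatin and 42.9 CPM with vehicle. Endothelial genes stood at 3.66 CPM with cisplatin and 7.49 CPM with vehicle. Club cell genes were at 2063 CPM with cisplatin and 832 CPM with vehicle, most of it Scgb1a1. Alveolar type 2 genes were at 188 CPM with cisplatin and 49.3 CPM with vehicle, and ciliated cell genes at 30.9 CPM with cisplatin and 7.24 CPM with vehicle. Leaving out the barcodes with at least 3 UMIs of immune, endothelial or fibroblast markers kept 4109 cisplatin and 3484 vehicle barcodes and gave a log2 ratio of 4.63 for Rprm, against 4.66 with them. The part of club, alveolar type 2 and ciliated cell transcripts in the results was not tested.

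The p53 protein is a transcription factor that is stabilised when DNA is damaged and then turns on genes for cell cycle arrest, repair and cell death. Mdm2, itself one of its targets, encodes the ubiquitin ligase that marks p53 for destruction. Reprimo was found as a p53-induced gene whose product is linked to arrest before mitosis, and it is often silenced by promoter methylation in human tumours. Loss of p53 together with loss of the retinoblastoma protein is the genetic hallmark of small cell lung cancer.

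The DNA upstream of the start site is shown for the genes that the results turn on: Rprm and Plk2, whose levels differed most between the libraries, Ccng1 and Phlda3, which varied together from cell to cell, and Mdm2. The sequences are RefSeq promoters of the build GRCm38.p6, as 250 bases ending just before the start site, written 5′ to 3′ on the strand of the gene. Matches to the p53 consensus half-site, a motif that reads the same on both strands, are in capitals. Of the 10 genes, 8 had an entry, and Trp53inp1 and Zmat3 are named only.
Rprm, chr2:54085553-54085802, minus strand: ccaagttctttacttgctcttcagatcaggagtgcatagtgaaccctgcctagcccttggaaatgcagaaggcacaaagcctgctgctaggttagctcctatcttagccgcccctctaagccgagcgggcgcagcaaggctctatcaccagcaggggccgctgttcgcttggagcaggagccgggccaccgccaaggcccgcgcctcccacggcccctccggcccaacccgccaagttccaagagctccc
Plk2, chr13:110394794-110395043, plus strand: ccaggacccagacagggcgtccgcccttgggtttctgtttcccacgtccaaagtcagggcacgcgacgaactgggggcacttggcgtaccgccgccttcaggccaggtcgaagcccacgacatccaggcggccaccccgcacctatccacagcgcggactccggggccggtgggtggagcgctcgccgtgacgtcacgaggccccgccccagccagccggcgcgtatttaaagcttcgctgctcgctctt
Ccng1, chr11:40755287-40755536, minus strand: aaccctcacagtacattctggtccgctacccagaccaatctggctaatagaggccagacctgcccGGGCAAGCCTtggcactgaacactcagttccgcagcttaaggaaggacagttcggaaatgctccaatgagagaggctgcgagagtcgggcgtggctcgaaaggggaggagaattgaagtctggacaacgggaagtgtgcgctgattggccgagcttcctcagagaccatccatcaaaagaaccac
Phlda3, chr1:135765835-135766084, plus strand: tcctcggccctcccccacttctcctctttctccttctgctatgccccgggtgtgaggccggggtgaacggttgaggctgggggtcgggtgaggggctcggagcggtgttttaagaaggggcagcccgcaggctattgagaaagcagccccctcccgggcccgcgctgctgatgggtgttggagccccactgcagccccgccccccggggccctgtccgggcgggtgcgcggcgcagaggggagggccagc
Mdm2, chr10:117710759-117711008, minus strand: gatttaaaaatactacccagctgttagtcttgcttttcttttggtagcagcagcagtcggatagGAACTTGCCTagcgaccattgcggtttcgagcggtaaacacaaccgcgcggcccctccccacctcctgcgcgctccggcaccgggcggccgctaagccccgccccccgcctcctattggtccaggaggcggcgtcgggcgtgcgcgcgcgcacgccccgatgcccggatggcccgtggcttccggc

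A half-site lay in the window of 4 of the 8 genes, against 7.13% of 32841 mouse promoters. The first count is per gene, with a match at any listed start, and the share is per promoter, so they are not on the same footing. In Mdm2 it began 186 bases before the start and in Ccng1 185 bases before it. Trp53 had one 75 bases before its start, and Aen had one in front of the second of its listed starts. Rprm, Plk2, Phlda3 and Eda2r had no match in these windows, which says only that these letters are not there. A match is a description and not a binding site. The Rprm window was 62.4% G and C with 13 CpG dinucleotides, and the Plk2 window was 68.4% G and C with 28. The median over all promoters was 52.4% G and C with 6 CpG.

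Across all kept barcodes, Rprm was far higher with cisplatin, Plk2 was about double its vehicle level, Eda2r was 1.64-fold (1.12 to 2.42) higher from few UMIs, and the other 7 genes lay within 1.5-fold. Of the 10 genes, 3 were at least 1.5-fold higher with cisplatin (Rprm, Plk2 and Eda2r) and 0 were at least 1.5-fold lower. Among the 13446 genes with at least 50 UMIs over both libraries, 8.09% were that much higher and 21.7% that much lower. The median log2 ratio, computed after adding 1 CPM, was 0.10 for the 10 genes and -0.16 for all measured genes. Under other scalings of the libraries the all-gene median moved up by 0.13 (TMM factors) or 0.15 (median-of-ratios), and the share of called genes that were higher went up to 42.6% or 46.3%, against 27.2% as first scaled.

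**Figure D1:**
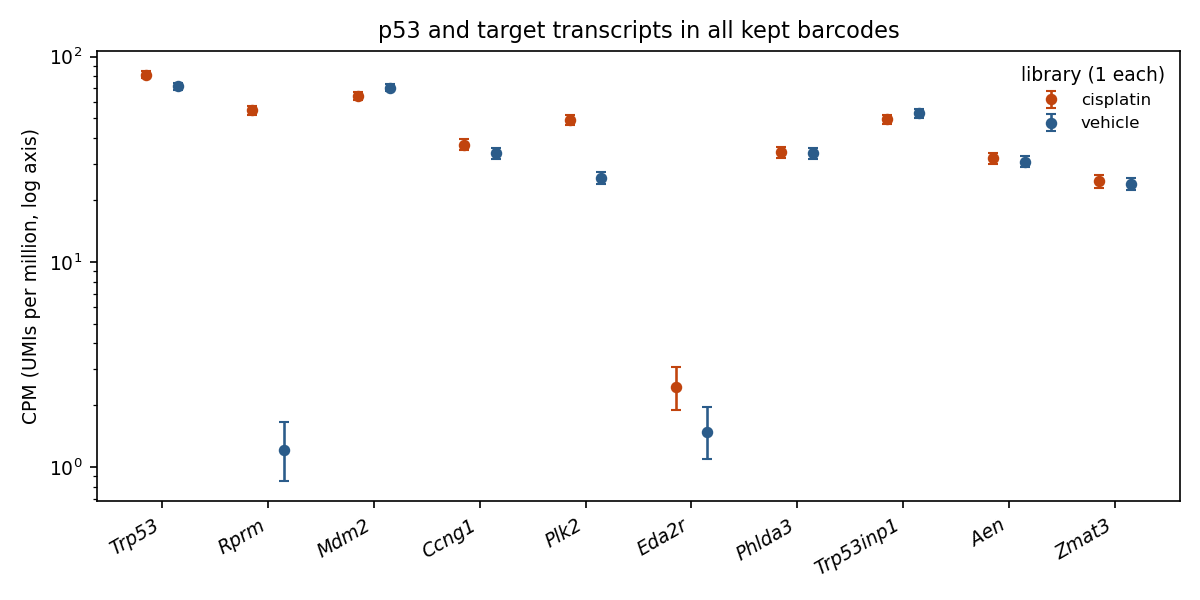
Levels of the 10 genes in all kept barcodes of the cisplatin and the vehicle library, in CPM on a log axis, with exact 95% Poisson intervals for counting error. Rprm was at 54.8 CPM with cisplatin and 1.21 CPM with vehicle, and Plk2 at 49.1 CPM with cisplatin and 25.7 CPM with vehicle, while 7 genes lay within 1.5-fold.

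Trp53 transcripts were counted in both libraries although the gene is floxed. Its level was 81.5 CPM (78.2 to 84.8) with cisplatin, from 2335 UMIs, and 71.5 CPM (68.6 to 74.5) with vehicle, from 2310 UMIs. That is a ratio of 1.14 (1.08 to 1.21). A Trp53 UMI was found in 38.3% of cisplatin cells and 41.5% of vehicle cells, and at an equal depth of 3000 UMIs per cell in 21.5% of cisplatin cells and 18.0% of vehicle cells. A count per gene does not say which exons a transcript holds, and the sources used here do not name the exons removed. The Trp53 level therefore checks neither the deletion nor the labels.

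Mdm2, the main negative regulator of p53, was at 64.0 CPM (61.2 to 67.0) with cisplatin and 70.5 CPM (67.6 to 73.5) with vehicle. Its log2 ratio was -0.14, the lowest of the 10 genes, and it turned to 0.00 under TMM scaling and 0.03 under median-of-ratios scaling. Mdm2 was thus not higher by 1.5-fold under any of these scalings.

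Among the genes linked to cell cycle arrest, Rprm had 1572 UMIs in the cisplatin library and 39 in the vehicle library. Its level was 54.8 CPM (52.2 to 57.6) with cisplatin and 1.21 CPM (0.858 to 1.65) with vehicle, a 45.4-fold ratio (33.1 to 64.1). The log2 ratio of 4.66 ranked 7 of the 13446 measured genes. Rprm was detected in 1095 of 4218 cisplatin cells, or 26.0% (24.6 to 27.3), and in 33 of 3672 vehicle cells, or 0.899% (0.619 to 1.26). At 3000 UMIs per cell it was detected in 15.6% of cisplatin cells and 0.454% of vehicle cells. The counts were spread over many cells: of the cisplatin cells with Rprm, 759 held 1 UMI, 246 held 2, and the highest held 8, while the highest vehicle cell held 3. A check for free RNA had little to rest on, since barcodes with other cell type markers and fewer than 3 neuroendocrine genes numbered 1 in the cisplatin library and 10 in the vehicle library. None of them held an Rprm UMI. In the vehicle library 0 of 10 allows a share of up to 30%, and in the cisplatin library 0 of 1 allows up to 97.5%. Whatever their neuroendocrine genes, barcodes with at least 3 UMIs of immune, endothelial or fibroblast markers held Rprm in 32 of 109 with cisplatin, or 29.4%. With vehicle 1 of 188 did. The part of free RNA in the Rprm counts was not tested. The related gene Rprml, which encodes a Reprimo-like protein, was at 6.0 CPM with cisplatin and 0.495 CPM with vehicle, from 172 UMIs with cisplatin and 16 with vehicle.

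Plk2, a polo-like kinase induced by p53 and by other signals, was at 49.1 CPM (46.6 to 51.8) with cisplatin and 25.7 CPM (24.0 to 27.5) with vehicle, a ratio of 1.91 (1.75 to 2.08). It was detected at 3000 UMIs in 12.2% (11.2 to 13.3) of cisplatin cells and 6.95% (6.13 to 7.84) of vehicle cells. Ccng1, which encodes the atypical cyclin G1, was at 37.3 CPM (35.1 to 39.6) with cisplatin and 33.7 CPM (31.7 to 35.8) with vehicle. The Ccng1 ratio of 1.11 did not reach 1.5-fold.

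Among the genes of cell death and survival, Eda2r, a receptor of the tumour necrosis factor receptor family, was the rarest. It had 70 UMIs with cisplatin and 48 with vehicle, at 2.44 CPM (1.90 to 3.09) with cisplatin and 1.49 CPM (1.10 to 1.97) with vehicle. The ratio of 1.64 had an interval of 1.12 to 2.42, so at this depth it could lie on either side of 1.5. Phlda3, whose product restrains the survival kinase Akt, was at 34.2 CPM with cisplatin and 33.8 CPM with vehicle. Trp53inp1, a stress-induced nuclear protein gene, was at 49.4 CPM with cisplatin and 52.9 CPM with vehicle. Aen, an apoptosis-linked nuclease, was at 31.9 CPM with cisplatin and 30.7 CPM with vehicle. Zmat3, an RNA-binding zinc finger protein, was at 24.7 CPM with cisplatin and 23.9 CPM with vehicle. The ratios of these 4 genes ran between 0.934 and 1.04, and each interval included 1.

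**Figure D2:**
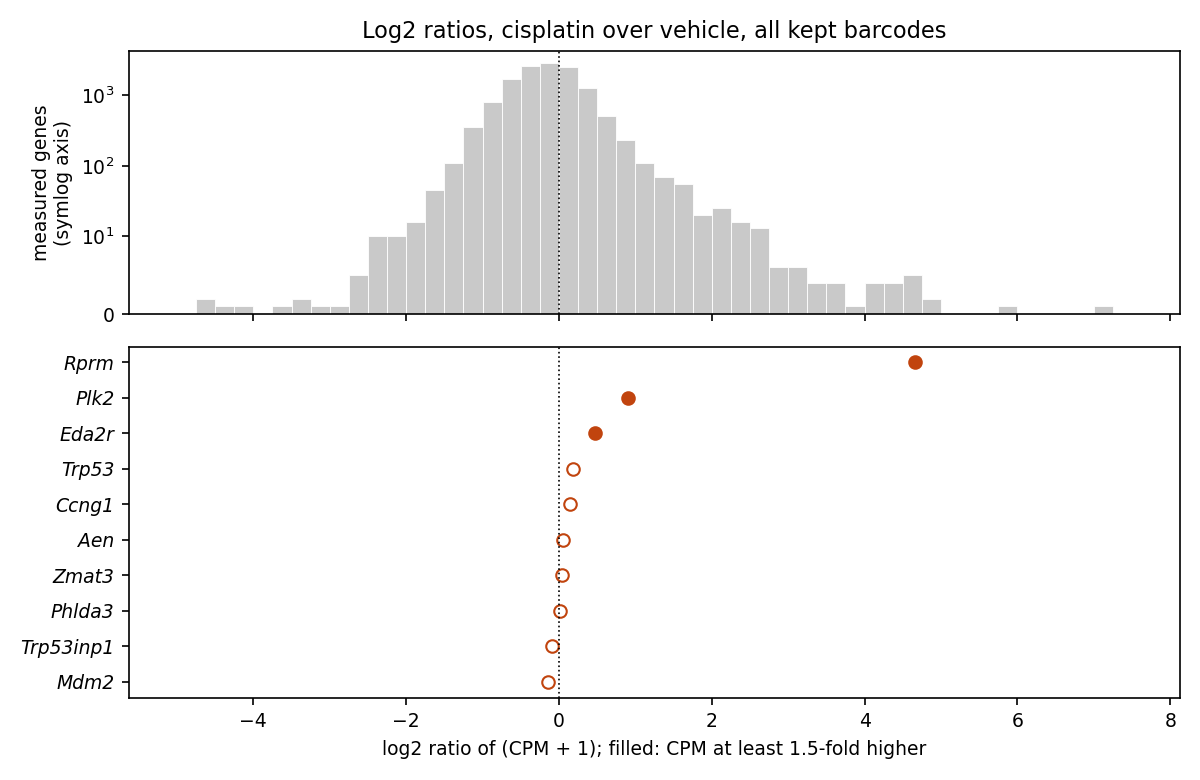
Upper panel, the number of measured genes in bins of log2 ratio, cisplatin over vehicle, after adding 1 CPM (symlog axis). Lower panel, the 10 genes on the same axis, filled where CPM was at least 1.5-fold higher. Rprm at 4.66 stands in the thin right tail, Plk2 is at 0.91, and the remaining genes lie between -0.14 and 0.47.

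A wider list of 26 other p53 targets was set beside these genes. Of these, 24 were measured, 0 were at least 1.5-fold higher, against 8.09% of all genes, and 3 were at least 1.5-fold lower, against 21.7% of all genes, with a median log2 ratio of -0.12. The 3 were Pidd1, a death domain adaptor, at 7.01 CPM with cisplatin and 13.4 CPM with vehicle, Apaf1, the apoptosome scaffold, at 4.36 CPM with cisplatin and 7.46 CPM with vehicle, and Sesn2, a stress-induced sestrin, at 5.76 CPM with cisplatin and 9.10 CPM with vehicle. Fdxr, Polk and Ddb2 came next, with ratios of 0.698, 0.749 and 0.753. Cdkn1a, the classical p53-induced inhibitor of cyclin-dependent kinases, was at 459 CPM (451 to 467) with cisplatin and 427 CPM (420 to 434) with vehicle. Taken relative to the all-gene median, 0 of the 24 were higher and 1 lower. The share of all genes called by this median-relative rule is not given here, and the shares above belong to the rule without it.

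Of 13 genes that act on p53, 12 were measured, 0 were at least 1.5-fold higher, against 8.09% of all genes, and 4 were at least 1.5-fold lower, against 21.7%. Hipk2, a kinase of p53, was at 16.1 CPM with cisplatin and 35.4 CPM with vehicle. Trp73, the p53 relative, was at 3.56 CPM with cisplatin and 6.47 CPM with vehicle. The acetyltransferase Ep300 was at 25.6 CPM with cisplatin and 39.5 CPM with vehicle, and the deubiquitinase Usp7 at 27.0 CPM with cisplatin and 41.1 CPM with vehicle. Cdkn2a, which encodes the Mdm2 inhibitor ARF and the kinase inhibitor p16, was at 139 CPM with cisplatin and 199 CPM with vehicle, and the checkpoint kinase Chek2 at 13.6 CPM with cisplatin and 9.26 CPM with vehicle. Relative to the all-gene median, 1 regulator was higher and 1 lower, again without a share of all genes by that rule to set beside it.

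Cell cycle states were set in cells thinned to 3000 UMIs, from 10 mitotic and 10 S-phase genes. Cells were called mitotic with at least 2 UMIs of the mitotic genes, S phase with fewer of those and at least 2 of the S-phase genes, and neither otherwise. Mitotic cells made up 39.6% of cisplatin cells and 35.8% of vehicle cells, S-phase cells 23.8% of cisplatin cells and 30.8% of vehicle cells. The excess of Rprm and Plk2 was present in each state. In mitotic cells 3 of 10 measured genes were at least 1.5-fold higher with cisplatin, against a background of 7.01% of genes higher. In S-phase cells it was 2 of 9, against 6.88%, and in cells of neither state 2 of 9, against 7.33%. In each state 0 of these genes were at least 1.5-fold lower, where 21.5% of all genes were in mitotic cells, 22.6% in S-phase cells and 21.3% in cells of neither state.

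Within the cisplatin library, Rprm was at 45.6 CPM (42.0 to 49.5) in mitotic cells, 55.1 CPM (49.4 to 61.2) in S-phase cells and 66.8 CPM (61.5 to 72.5) in cells of neither state. These intervals did not overlap between mitotic cells and cells of neither state, and S-phase cells lay between. The mitotic level was 0.683 (0.608 to 0.768) of that in cells of neither state. At 3000 UMIs, Rprm was detected in 12.7% of mitotic, 15.05% of S-phase and 19.0% of remaining cisplatin cells. In the vehicle library Rprm was at 0.752 CPM in mitotic cells, 1.36 CPM in S-phase cells and 1.77 CPM in cells of neither state, from 10, 13 and 16 UMIs.

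Ratios between cycle states were alike in the libraries for Trp53inp1 and Mdm2, and lay on opposite sides of 1 for Phlda3. Trp53inp1 in mitotic cells was 1.46-fold (1.28 to 1.66) its level in cells of neither state with cisplatin and 1.43-fold (1.27 to 1.62) with vehicle. Mdm2 in mitotic cells was 1.27-fold in each library. Phlda3 was at 32.1 CPM in mitotic cells and 36.4 CPM in cells of neither state with cisplatin, a ratio of 0.881 (0.759 to 1.02), and at 36.4 CPM and 29.4 CPM with vehicle, a ratio of 1.24 (1.07 to 1.44). In Hhex-negative cells, those with no UMI of Hhex, its ratio was 0.757 (0.646 to 0.888) with cisplatin and 1.21 (1.04 to 1.42) with vehicle, and the difference between the libraries was not tested. Trp53 was highest in S phase, at 94.8 CPM (87.3 to 103) with cisplatin and 78.3 CPM (72.8 to 84.1) with vehicle, although the vehicle interval overlapped those of the other states. Plk2 was at 50.8, 48.7 and 46.0 CPM in mitotic, S-phase and remaining cisplatin cells, against 28.9, 21.9 and 24.99 CPM in the same states of vehicle cells. Eda2r in cisplatin cells was at 3.64 CPM in mitotic cells and 1.62 CPM in cells of neither state, from 47 and 14 UMIs. It was the 1 gene of 10 at least 1.5-fold higher in mitotic than in remaining cisplatin cells, where 13.9% of all genes were, and 0 of 10 were that much lower, against 7.42% of all genes. In the vehicle library 0 of 8 measured genes were called in either direction, where 13.7% of all genes were higher in mitotic cells and 6.2% lower. S-phase cells against cells of neither state gave 0 calls among 9 measured genes with cisplatin, against 6.68% of all genes higher and 2.72% lower, and 0 among 8 with vehicle, against 6.75% higher and 2.18% lower.

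With the Hhex-negative cells taken alone, Rprm passed the threshold between cycle states: it was at 54.2 CPM in mitotic and 85.1 CPM in remaining cisplatin cells, a ratio of 0.637 (0.563 to 0.721). It was the 1 gene of 10 at least 1.5-fold lower there, against 7.97% of all genes, and 2 were higher (Eda2r and Trp53inp1), against 14.6%. In Hhex-negative vehicle cells 0 of 8 were higher, against 13.6% of all genes, and 0 lower, against 6.1%.

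**Figure D3:**
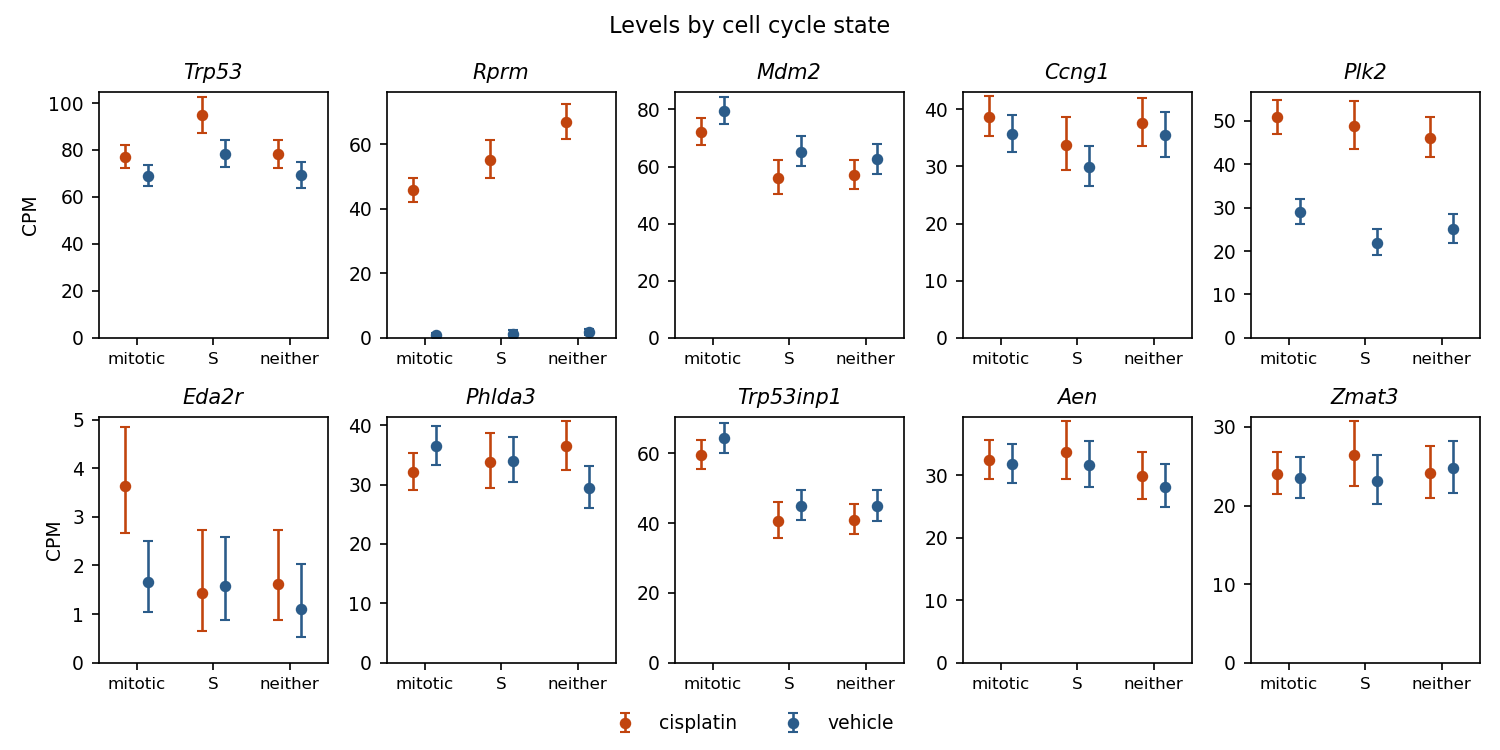
Levels of the 10 genes in CPM, from 0, in mitotic, S-phase (S) and remaining (neither) cells of the cisplatin and the vehicle library, with exact 95% Poisson intervals. Cisplatin Rprm was lowest in mitotic cells (45.6 CPM) and highest in cells of neither state (66.8 CPM), and Trp53inp1 and Mdm2 were highest in mitotic cells of both libraries.

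Hhex, a homeobox transcription factor gene, was detected in 911 cisplatin cells (21.6%) and 52 vehicle cells (1.42%), called Hhex-positive with at least 1 UMI in the full counts. Hhex-positive cells were deeper than Hhex-negative cells, with medians of 7924 UMIs against 5526 in the cisplatin library. Rprm was lower in Hhex-positive than in Hhex-negative cisplatin cells, at 22.0 CPM (18.9 to 25.6) in Hhex-positive cells and 67.0 CPM (63.6 to 70.6) in Hhex-negative cells. At 3000 UMIs it was detected in 7.13% (5.51 to 9.05) of Hhex-positive and 18.0% (16.6 to 19.4) of Hhex-negative cisplatin cells. In the vehicle library Rprm was at 1.57 CPM in Hhex-positive cells, from 1 UMI, and 1.2 CPM in Hhex-negative cells. The ratio of cisplatin to vehicle in Hhex-negative cells was 55.9 (40.5 to 79.3). Rprml had the opposite pattern: in cisplatin cells it was at 16.5 CPM (13.8 to 19.6) in Hhex-positive and 2.10 CPM (1.53 to 2.83) in Hhex-negative cells.

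In the cisplatin library 3 of 10 genes were at least 1.5-fold lower in Hhex-positive than in Hhex-negative cells, against 13.9% of all genes, and 0 were that much higher, against 10.2%. Besides Rprm these were Phlda3, at 15.6 CPM (12.9 to 18.6) in Hhex-positive and 41.1 CPM (38.4 to 43.9) in Hhex-negative cells, and Eda2r, at 1.29 CPM and 2.87 CPM from 10 and 60 UMIs. Plk2 was at 38.8 CPM in Hhex-positive and 52.95 CPM in Hhex-negative cisplatin cells. Zmat3 went the other way without reaching 1.5-fold, at 30.5 CPM (26.8 to 34.7) in Hhex-positive and 22.6 CPM (20.6 to 24.7) in Hhex-negative cisplatin cells. Mitotic cells made up 40.05% (36.8 to 43.4) of Hhex-positive and 39.5% (37.7 to 41.3) of Hhex-negative cisplatin cells.

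Between treatments, Hhex-negative cells gave the calls seen over all cells: 3 of 10 genes were at least 1.5-fold higher with cisplatin, against a background of 5.69%, and 0 lower, against 20.7%. Plk2 was at 52.95 CPM with cisplatin and 25.1 CPM with vehicle there. In Hhex-positive cells 1 of 9 measured genes was higher (Rprm), against 12.8% of all genes, and 3 were lower (Mdm2, Ccng1 and Phlda3), against 26.6%. The vehicle side of that contrast was 52 cells and hung in part on a single barcode of 22760 UMIs, which held 26 of the 62 Mdm2 UMIs and 19 of the 37 Plk2 UMIs. Without it, Mdm2 was at 58.5 CPM with cisplatin and 58.7 CPM with vehicle, and Plk2 at 38.8 CPM with cisplatin and 29.3 CPM with vehicle. The same barcode held 0 of the 38 Ccng1 UMIs and 1 of the 23 Phlda3 UMIs, so leaving it out could not test their ratios. These were 0.514 for Ccng1 and 0.435 for Phlda3 without it. Within the vehicle library, 2 of 8 measured genes, Ccng1 and Plk2, were at least 1.5-fold higher in Hhex-positive than in Hhex-negative cells, against 12.5% of all genes, and 0 lower, against 15.2%. Without that barcode Plk2 was at 29.3 CPM in Hhex-positive against 25.1 CPM in Hhex-negative vehicle cells. With Hhex called at 2 UMIs, Plk2 was at 4.79 CPM, from 1 UMI, against 25.9 CPM. With Hhex called in thinned cells it was at 13.8 CPM, from 3 UMIs, against 25.8 CPM. Ccng1 stayed higher in Hhex-positive vehicle cells by both calls.

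**Figure D4:**
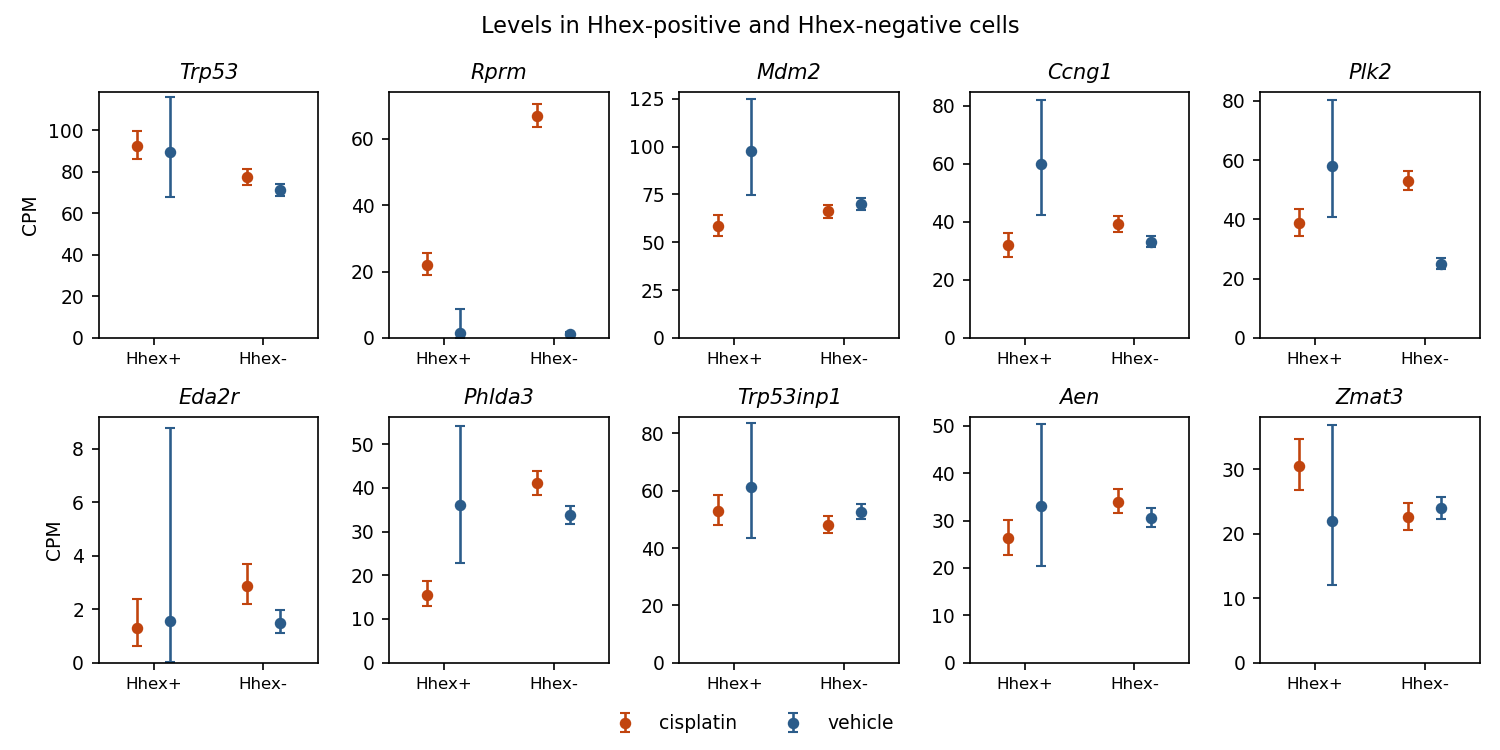
Levels of the 10 genes in CPM, from 0, in Hhex-positive (Hhex+) and Hhex-negative (Hhex-) cells of the cisplatin and the vehicle library, with exact 95% Poisson intervals. Cisplatin Rprm was at 22.0 CPM in Hhex-positive and 67.0 CPM in Hhex-negative cells, and the wide vehicle intervals in Hhex-positive cells come from 52 cells.

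From cell to cell, several targets varied together in both libraries, while the correlations of Rprm and Trp53 with the other genes lay near 0. Pearson correlations were computed on the log of 1 plus the UMIs in cells thinned to 3000 UMIs, 3857 with cisplatin and 3526 with vehicle, for the 10 genes and Cdkn1a. The pairs share library, depth and cells, and the values are a description. Ccng1 and Phlda3 had an r of 0.32 with cisplatin and 0.22 with vehicle. By cycle state it was 0.39 in mitotic, 0.26 in S-phase and 0.27 in remaining cisplatin cells. In vehicle cells it was 0.30 in mitotic, 0.096 in S-phase and 0.23 in remaining cells. Phlda3 and Cdkn1a had an r of 0.33 with cisplatin and 0.25 with vehicle, and Ccng1 and Cdkn1a had 0.22 with cisplatin and 0.17 with vehicle. Of the 55 pairs, 12 reached 0.1 with cisplatin and 8 with vehicle, and the median pair was at 0.04 in each. The share of other gene pairs of like level that reach 0.1 is not given here, so these counts cannot be called unusual. The 10 pairs with Rprm ran between -0.02 and 0.06 with cisplatin and between -0.03 and 0.03 with vehicle. Those with Trp53 reached at most 0.05 with cisplatin and 0.07 with vehicle. In counts this sparse, and with 39 Rprm UMIs in the vehicle library, values near 0 do not show that genes vary apart.

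**Figure D5:**
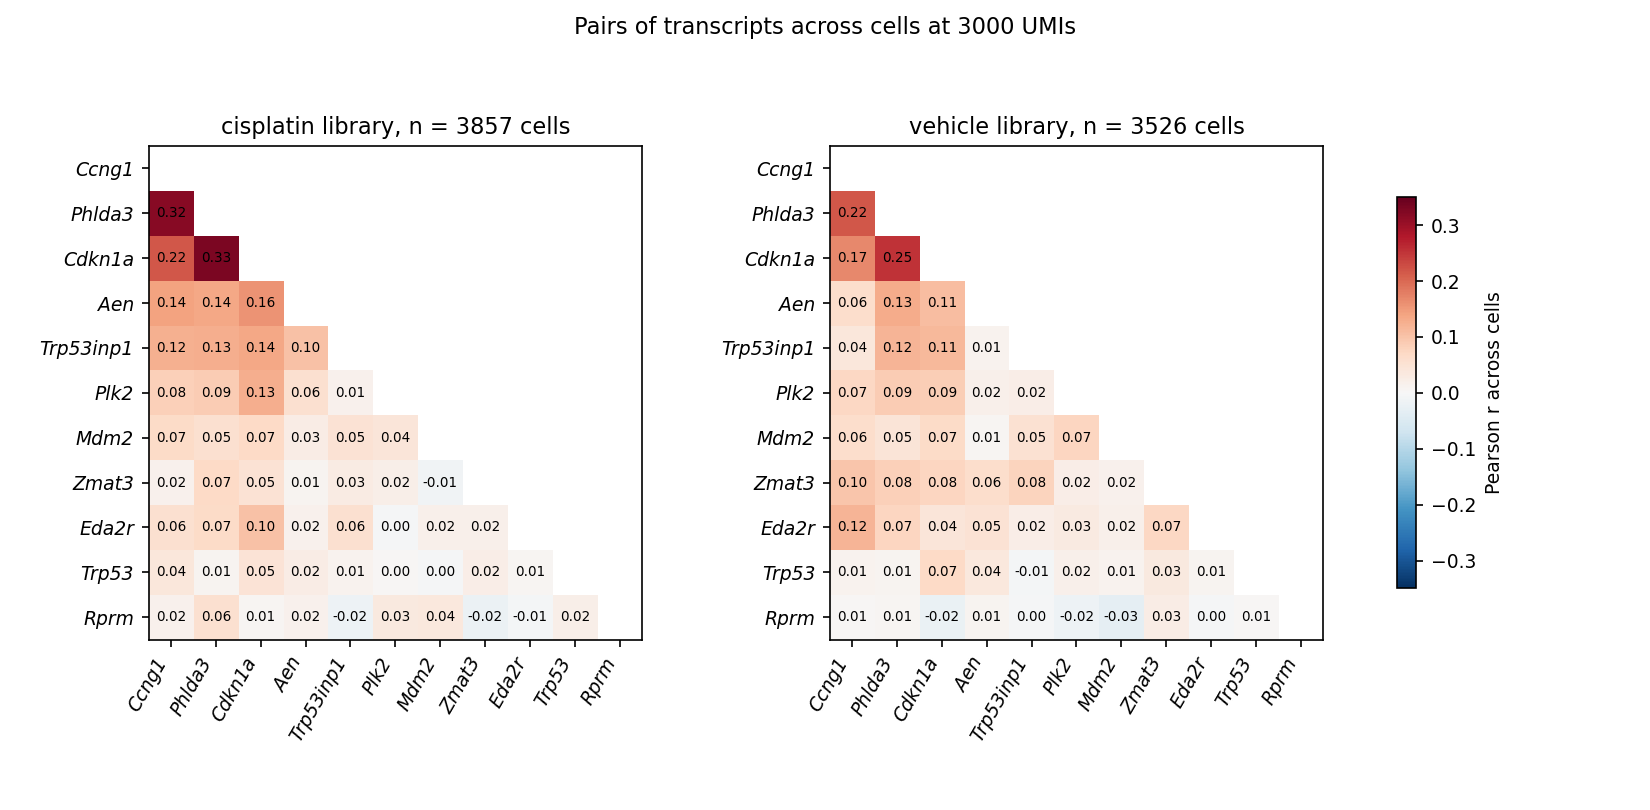
Pearson r between pairs of transcripts across cells thinned to 3000 UMIs, for the cisplatin library (left, 3857 cells) and the vehicle library (right, 3526 cells). Ccng1, Phlda3 and Cdkn1a form the darkest corner in both, and the rows of Trp53 and Rprm lie near 0.

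The pairing could be seen in single cells. At 3000 UMIs, a Ccng1 UMI was found in 33.0% (27.9 to 38.5) of cisplatin cells with a Phlda3 UMI and in 7.38% (6.54 to 8.29) of those without one. In the vehicle library it was found in 23.9% (19.1 to 29.2) of cells with a Phlda3 UMI and in 7.54% (6.65 to 8.50) of those without. Cells with both numbered 106 of 3857 with cisplatin, or 2.75% (2.26 to 3.31), and 69 of 3526 with vehicle, or 1.96% (1.53 to 2.47). These cells and the further genes named for them were picked after the values were seen, so what follows is a description without a test.

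The cells with both transcripts held more of most other measured genes of the 10, in each library, than cells with neither. In the cisplatin library 6 of the 7 other measured genes of the 10 were at least 1.5-fold higher, against 10% of all genes, and 0 were lower, against 20.3%. In the vehicle library it was 5 of 6, against 13.3% of all genes, and 0 lower, against 19.9%. Aen was at 129 CPM in cells with both and 28.1 CPM in cells with neither with cisplatin, and at 96.6 CPM and 26.3 CPM with vehicle. Trp53inp1 was at 160 CPM in cells with both and 41.3 CPM in cells with neither with cisplatin, and at 149.8 CPM and 46.3 CPM with vehicle. Mdm2 was 2.5-fold (1.82 to 3.36) higher with cisplatin and 2.22-fold (1.49 to 3.21) higher with vehicle, and Plk2 was 2.98-fold (2.15 to 4.06) higher with cisplatin and 3.27-fold (1.84 to 5.44) higher with vehicle. Zmat3 had a ratio of 1.24 (0.558 to 2.39) with cisplatin and 3.87 (2.25 to 6.27) with vehicle, and these intervals overlap. Rprm was at 91.2 CPM in cells with both and 60.1 CPM in cells with neither with cisplatin, a ratio of 1.52 (1.01 to 2.20). Hhex-positive cells, in which Rprm was lower, made up 8.49% of these cells with both and 23.6% of those with neither. The part of Hhex state in the Rprm ratio was not tested. With vehicle Rprm had 1 and 13 UMIs in these cells.

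Of the 26 other p53 targets, 22 were measured in these cisplatin cells, and 17 were at least 1.5-fold higher in cells with both, against 10% of all genes, and 2 lower (Sesn1 and Rrm2b), against 20.3%, with a median log2 ratio of 0.94. With vehicle 23 were measured, and 15 were higher, against 13.3% of all genes, and 3 lower (Ddb2, Xpc and Cd82), against 19.9%, with a median log2 ratio of 0.81. The genes called lower rest on at most 3 UMIs in the cells with both, and their intervals include 1. Some genes called higher are as uncertain. With cisplatin the intervals of Pidd1 (0.571 to 5.86), Xpc, Fdxr and Gtse1 also include 1, from 4, 8, 5 and 7 UMIs in the cells with both. With vehicle those of Rrm2b and Fdxr do, from 7 and 5 UMIs. Cdkn1a was detected in 90.6% (83.3 to 95.4) of cisplatin cells with both transcripts and 52.1% (50.3 to 53.8) of those with neither. In the vehicle library it was detected in 92.8% (83.9 to 97.6) of cells with both and 49.3% (47.5 to 51.2) of cells with neither. Its level was 5.34-fold higher with cisplatin and 3.99-fold higher with vehicle. Gdf15, a secreted stress cytokine, was at 97.5 CPM in cells with both and 7.84 CPM in cells with neither with cisplatin, with up to 12 UMIs in 1 cell, and at 48.3 CPM and 10.8 CPM with vehicle. Bbc3, which encodes the death protein Puma, was 2.29-fold higher with cisplatin and 2.14-fold higher with vehicle. Bax, the pore-forming death protein, was 2.19-fold (1.89 to 2.52) higher with cisplatin and 1.7-fold (1.37 to 2.08) higher with vehicle. Btg2, an antiproliferative gene, had a ratio of 1.54 (1.43 to 1.66) with cisplatin and 1.09 (0.969 to 1.22) with vehicle. Cdkn2a, one of the regulators, was at 59.7 CPM in cells with both and 134 CPM in cells with neither with cisplatin, and at 208 CPM and 179 CPM with vehicle. By Hhex state it was at 258 CPM in Hhex-positive and 94.7 CPM in Hhex-negative cisplatin cells, and the part of Hhex state was not tested.

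These cells carried the neuroendocrine markers at the level of the rest. Their summed level was 9075 CPM in cells with both and 8859 CPM in cells with neither with cisplatin, and 6493 CPM and 6613 CPM with vehicle. Insm1, one of these markers, was detected in 92.5% of cisplatin cells with both and 89.2% of those with neither, and in 75.4% and 75.9% of these vehicle cells. Summed immune markers were at 22.0 CPM in cells with both and 38.3 CPM in cells with neither with cisplatin, and 33.8 CPM and 94.3 CPM with vehicle. Alveolar type 2 markers were at 31.4 CPM in cells with both and 168 CPM in cells with neither with cisplatin, a ratio of 0.188 (0.0898 to 0.346), and at 4.83 CPM and 33.97 CPM with vehicle. Ciliated cell markers were at 3.14 CPM in cells with both and 28.8 CPM in cells with neither with cisplatin, and at 19.3 CPM and 7.02 CPM with vehicle. Fibroblast markers were at 12.6 CPM in cells with both and 18.9 CPM in cells with neither with cisplatin, and at 9.66 CPM and 43.2 CPM with vehicle. Endothelial markers were at 6.29 CPM in cells with both and 2.34 CPM in cells with neither with cisplatin, and at 0 CPM and 9.91 CPM with vehicle. In the cells with both, ciliated markers had 1 UMI with cisplatin and 4 with vehicle, fibroblast markers 4 and 2, and endothelial markers 2 and 0. Immune markers had 7 UMIs there in each library, and alveolar type 2 markers 10 with cisplatin and 1 with vehicle. Club cell markers were at 465 CPM in cells with both and 464 CPM in cells with neither with cisplatin, and at 246 CPM and 312 CPM with vehicle. The part of these other cell type transcripts in the results on these cells was not tested. Before thinning, the median depth was 5386.5 UMIs in cells with both and 6396 in cells with neither with cisplatin, and 8182 and 8388 with vehicle. Mitotic cells made up 42.5% of cells with both and 40.1% of cells with neither with cisplatin, and 44.9% and 35.8% with vehicle. Of the cisplatin cells, 8.49% of those with both and 23.6% of those with neither were Hhex-positive. The Trp53 ratio was 1.51 (1.06 to 2.08) with cisplatin and 1.45 (0.877 to 2.25) with vehicle.

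Rprm-positive cells were next set against Rprm-negative cells among the Hhex-negative cisplatin cells thinned to 3000 UMIs, 538 against 2450. Of the 8 other measured genes, 1 was at least 1.5-fold higher in Rprm-positive cells, against 1.95% of all genes, and 0 lower, against 5.74%. That gene was Phlda3, at 61.3 CPM in Rprm-positive and 40.3 CPM in Rprm-negative cells, a ratio of 1.52 (1.2 to 1.92). A Phlda3 UMI was found in 12.3% (9.62 to 15.3) of Rprm-positive and 8.98% (7.88 to 10.2) of Rprm-negative cells, and these intervals overlap. Mdm2 had a ratio of 1.30 (1.05 to 1.59), and the intervals of Trp53, Ccng1, Plk2, Trp53inp1, Aen and Zmat3 included 1. Cdkn1a was at 527 CPM in Rprm-positive and 531 CPM in Rprm-negative cells. Of Rprm-positive cells 31.8% (27.9 to 35.9) were mitotic, against 41.2% (39.2 to 43.2) of Rprm-negative cells.

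Among 6351 genes compared across the 3857 cisplatin cells, those most like Rprm were Cd9, a tetraspanin, at an r of 0.14, and Nov, Dapk2, Nnat and Nbl1, the last at 0.12. Those least like it were Scg2 at -0.15, Pcsk2, Ceacam10, Hhex and Gfra4 at -0.11. All are low values in sparse counts.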

How the data were processed

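The deposited matrices hold raw UMI counts per gene and cell barcode. Per the submitters' processing notes they were made with Cell Ranger 2.0.2 on the mouse build mm10. The sources used here name no other settings. The genes and the lists beside them were chosen with earlier results of these data known. The lists of mitotic and S-phase genes, other p53 targets and regulators are hand-written.

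Barcodes with at least 500 genes and at most 10% mitochondrial UMIs were kept (36 cisplatin and 54 vehicle barcodes were removed). No doublet caller was run and no doublets were removed. Total UMIs before the filter were 28777462 with cisplatin and 32519922 with vehicle. UMIs were summed over the cells of a class and divided by their total to give CPM, with exact 95% Poisson intervals. Ratios have exact conditional binomial intervals and shares exact Clopper-Pearson intervals, all for counting error only. Log2 ratios used CPM plus 1. A gene was measured with at least 50 UMIs over both sides and called at 1.5-fold. For shares, states and correlations each cell was thinned without replacement to 3000 UMIs (seed 1), and 361 cisplatin and 146 vehicle cells below that were left out. With 1 library per arm no p-value was computed. The named genes are the 10, Rprml, Hhex, up to 6 genes of each list with the largest absolute log2 ratio, and the 5 genes most like Rprm. Cdkn1a, Gdf15, Bbc3, Bax, Btg2, the 5 genes least like Rprm and the cells with both Ccng1 and Phlda3 were picked with their values in view.

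The calls were tested on simulated counts for 13440 genes with the libraries' means and totals: 98.5% of 200 genes changed 2-fold were called, and 0.951% of unchanged genes. With 1 library per arm the simulation could not hold differences between animals, tumours or libraries. These shares are therefore not a rate of false calls between treatments. Genes were located with GENCODE M21 (GRCm38), in which none of the 10 overlaps another gene. Scaling alternatives used edgeR 4.0.16 (TMM) and DESeq2 1.42.0 (median of ratios) on the summed counts, without their tests. The work used Python 3.11.15, numpy 2.4.6, scipy 1.17.1, pandas 2.3.3, matplotlib 3.10.9 and R 4.3.3.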

Additional observations from a re-analysis of the deposited data

Results flagged for a closer look

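The cisplatin to vehicle ratios of 3 genes pointed in opposite directions in Hhex-positive and Hhex-negative cells. Ccng1 had a ratio of 0.533 in Hhex-positive cells and 1.18 in Hhex-negative cells. Phlda3 had 0.431 in Hhex-positive and 1.22 in Hhex-negative cells. Plk2 had 0.667 in Hhex-positive and 2.11 in Hhex-negative cells. With 1 library per arm the difference was not tested, and the vehicle library had 52 Hhex-positive cells. Leaving out the single vehicle barcode with most Plk2 UMIs turned the Plk2 ratio in Hhex-positive cells to 1.32 (0.822 to 2.26), in the direction of Hhex-negative cells. That barcode held 0 Ccng1 UMIs and 1 Phlda3 UMI. Leaving it out therefore could not test the ratios of Ccng1 (0.514 without it) and Phlda3 (0.435 without it).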

How the results depend on the processing

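The Rprm log2 ratio of 4.66 kept its direction and its call under every alternative run. It was 4.95 without Hhex-positive cells and 5.39 with 0.1 CPM added. At a 2-fold threshold 1 of the 10 genes was higher (Rprm), against 3 at 1.5-fold, 0 other targets were lower, against 3, and 516 of all genes were higher and 959 lower, against 1088 and 2912. With median-of-ratios scaling 1876 genes were lower. Of the values for the other 9 genes over all barcodes, 60 stayed within the counting interval and 21 moved beyond it, none of them a called gene that changed direction. By cycle state 55 stayed and 5 moved. By Hhex state 50 stayed, 9 moved and 1, a called gene, reversed. This was Mdm2 in Hhex-positive cells, at a log2 ratio of -0.73, and at 0.27 when Hhex was called in thinned cells. That alternative was chosen after seeing the data and leaves 621 cisplatin and 21 vehicle cells. Genes without a call also changed side under it. Plk2 in Hhex-positive cells went from a ratio of 0.667 to 33.4 CPM with cisplatin against 13.8 CPM with vehicle, the latter from 3 UMIs. Aen and Trp53inp1 likewise went from lower to higher with cisplatin. Plk2, Aen and Trp53inp1 were also higher with cisplatin when Hhex was called at 2 UMIs. Their vehicle levels then rested on 1, 2 and 8 UMIs in 17 cells. Mdm2, Ccng1 and Phlda3 stayed lower with cisplatin at that cut. Leaving out 1 vehicle barcode and leaving out barcodes with markers of other cell types were also chosen after seeing the data. The cause of these shifts was not tested. Eda2r, with 70 UMIs with cisplatin and 48 with vehicle, and the 52 Hhex-positive vehicle cells are limited by depth. No paired analysis was possible because each arm has 1 library.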
